A study of Mus musculus with 6 samples.

Results

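The nuclear-encoded subunits of the respiratory chain and of the ATP synthase were followed in alveolar macrophages of the mouse, phagocytes that live in the airspaces of the lung. The members were the genes whose symbols begin with Ndufa, Ndufb, Ndufc, Ndufs, Ndufv, Sdha, Sdhb, Sdhc, Sdhd, Uqcr, Cox4, Cox5, Cox6, Cox7, Cox8 or Atp5 and whose counts summed to at least 60 over the 6 libraries. The count table lists 23413 genes, of which 94 carried such a symbol and 86 reached that sum. All 86 also passed the filter on low counts, so none was lost before testing. By their known function, 75 are subunits, with 35 in complex I, 4 in complex II, 8 in complex III, 13 in complex IV and 15 in complex V. The other 11 were taken in by their prefix and are not subunits. They are the complex I assembly factors Ndufaf1 to Ndufaf7, the complex II assembly factors Sdhaf1 and Sdhaf2, and Atp5s and Atp5sl, which are not counted here among the subunits of the ATP synthase.

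Freshly isolated wild-type cells from lavage were given 100 ng/mL LPS with 50 nM vitamin D3 (LPS + VD3), or 100 ng/mL LPS alone, for 4 h in complete RPMI1640 medium, or were controls. Each of the 3 groups has 2 libraries. LPS is the bacterial lipopolysaccharide that Toll-like receptor signalling detects, and VD3 acts through the vitamin D receptor, a nuclear receptor. The labels give no culture time for the controls and no vehicle for VD3. Nor do they say that the libraries stem from different mice, so the p-values measure only how far these libraries vary, in part perhaps for technical reasons.

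Complex I oxidises NADH and complex II oxidises succinate, and both pass electrons through ubiquinone to complex III and on to complex IV, which reduces oxygen. Complexes I, III and IV pump protons across the inner mitochondrial membrane, and complex V, the ATP synthase, uses the gradient to make ATP. In macrophages stimulated with LPS, oxidative phosphorylation is known to give way to glycolysis, and succinate oxidation and reverse electron flow through complex I are known sources of mitochondrial superoxide. Alveolar macrophages are known for a strong dependence on mitochondrial metabolism.

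The libraries held between 5022314 and 5465223 counts, and the subunits took between 0.544% and 0.838% of a library's counts. Values below are CPM, counts brought to a common library total, scaled by TMM (the trimmed mean of M-values) unless said otherwise. The 2 libraries of a group stood furthest apart in LPS, with a chi-square statistic, divided by its degrees of freedom, of 9.64 in LPS + VD3, 25.3 in LPS and 2.45 in control, so results are also given without LPS 1 and without LPS 2. The scaling matters between treated and control libraries: without it the median log2 fold change of all 10724 genes tested was -0.29 in LPS against control and -0.32 in LPS + VD3 against control, against 0.01 in both with it. The 11 listed alveolar macrophage markers summed to between 24210 and 26482 CPM in LPS + VD3, between 26089 and 27778 CPM in LPS and between 22437 and 22586 CPM in control libraries. Chi3l3 was the largest part of that sum, and single markers went opposite ways: Marco had 3349 and 3912 CPM in LPS + VD3, 3530 and 3470 CPM in LPS and 1433 and 1440 CPM in control libraries, and Mrc1 had 1077 and 1127 CPM in LPS + VD3, 786 and 1152 CPM in LPS and 1597 and 1726 CPM in control libraries. Siglec5, Krt79, Ear2 and Pparg were also lower in all treated than in both control libraries. Car4, Fabp4, Itgax and Emr1 were, like Marco, higher in all treated than in both control libraries. Neutrophil markers summed to between 28.1 and 34.1 CPM in LPS + VD3, between 19.1 and 25.7 CPM in LPS and between 15.5 and 18.2 CPM in control libraries, with S100a9, Mpo and Elane at 0 in all. The lymphocyte, lung epithelium and stroma lists each summed to at most 3.84 CPM, and the erythroid genes were at 0. The part of these markers in the results was not tested. In bulk RNA, fewer cells of a type and less RNA per cell cannot be told apart.

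The subunits were ordered by level per kilobase of transcript, as the mean over the 6 libraries, since counts alone favour long transcripts. The median subunit stood at 147 CPM per kilobase in complex V, 145 in complex IV, 84.7 in complex III, 74.5 in complex II and 49.4 in complex I. Atp5b, the catalytic beta subunit of the ATP synthase, had the highest level of all subunits at 486 CPM per kilobase, followed within complex V by Atp5a1, the alpha subunit, at 266. Within complex IV, Cox6b1, which lies on the intermembrane side, led with 341 CPM per kilobase, and Cox4i1, a regulatory subunit, followed with 295. The other complexes were led by Uqcrb at 210 and Uqcrh at 166 in complex III, by Ndufa6 at 87.9 and Ndufb5 at 79 in complex I, and by Sdhd at 84.6 and Sdha at 81.2 CPM per kilobase in complex II. Neighbours in such an order can lie within the spread of the libraries: Sdhd averaged 70.7 ± 20.6 in LPS + VD3, 81.2 ± 13.7 in LPS and 102 ± 1.48 CPM per kilobase in control libraries, and Sdha 73.7 ± 8.4, 80.2 ± 6.15 and 89.7 ± 5.22 CPM per kilobase in the same groups (SD, n = 2 each). The lowest subunits were Sdhc at 47.9 in complex II, Uqcrc2 at 68.2 in complex III, Cox6b2 at 5.76 in complex IV, Ndufb2 at 4.51 in complex I and Atp5g1 at 25.5 CPM per kilobase in complex V. For Ndufb2 and Atp5g1 the annotated transcripts differ widely in length, so these 2 levels depend on the length chosen.

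**Figure D1:**
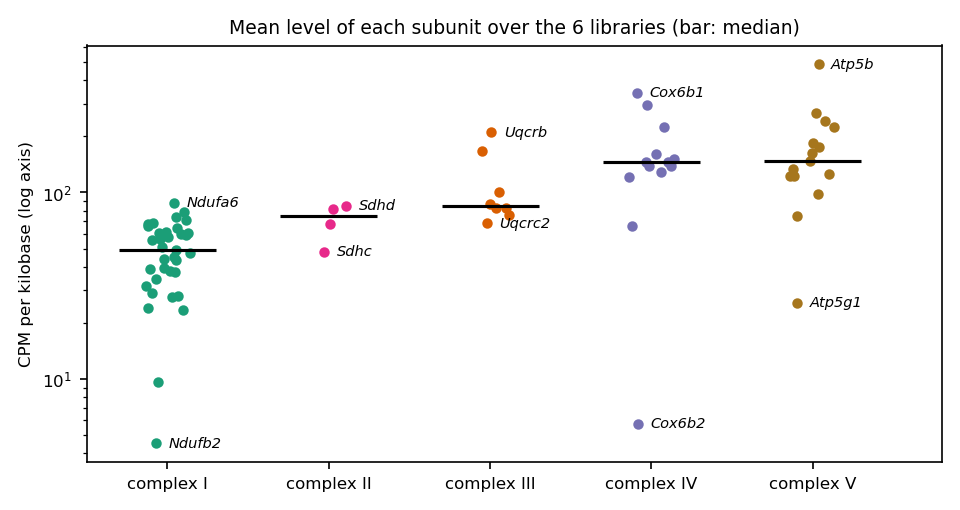
Mean level of each of the 75 subunits over the 6 libraries, in CPM per kilobase of transcript on a log axis, by complex, with the median as a bar. Complexes IV and V, with medians of 145 and 147, lie above complex I, with a median of 49.4, and Cox6b2, Ndufb2 and Atp5g1 stand below the other subunits of their complexes.

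The tissue-restricted isoforms of complex IV were almost absent. Cox4i1 had 7016 counts over the 6 libraries and Cox4i2, its hypoxia-linked counterpart, had 3. Cox6a1 had 2605 counts against 32 for Cox6a2, the form of heart and skeletal muscle. Cox6b1 had 5220 counts against 80 for the testis form Cox6b2, which was the member closest to the minimum of 60. Cox7a2 had 3020 and Cox7a2l 2325 counts, against 30 for Cox7a1, the muscle form. Cox8a had 2382 counts, while Cox8b and Cox8c had none. Ndufa4, now counted as a subunit of complex IV, had 2343 counts and Ndufa4l2, a hypoxia-inducible relative, had none. The genes Atp5g1, Atp5g2 and Atp5g3, which encode the same mature c subunit of the ATP synthase, had 2151, 2273 and 5481 counts. Cox7b2 and Ndufs5 were also listed at 0 in every library, and a count of 0 allows up to 3 counts per library. Ndufs5 is a ubiquitous accessory subunit of complex I, so its 0 is given as listed and no expression is read from it. The sums just above the minimum belonged to Cox6b2 with 80, Ndufaf6 with 100, Atp5s with 114 and Ndufaf3 with 185 counts, and those just below it to Cox6a2 and Cox7a1.

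Against control, LPS changed 3 of the 86 members, against 31.8% of all genes tested (edgeR quasi-likelihood test, Benjamini-Hochberg adjusted p under 0.05). Uqcrfs1, the Rieske iron-sulfur protein of complex III, rose, against 15.7% of genes tested that rose. The assembly factors Ndufaf4 and Ndufaf7 fell, against 16.2% of genes tested that fell. No other of the 75 subunits passed the test in this comparison, and the median log2 fold change of the 86 members was 0.06, beside 0.01 for all genes tested. Only 2 members, both assembly factors, had a fitted log2 change of 1 or more in size, which 21.3% of the genes tested had.

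Uqcrfs1 carries the iron-sulfur cluster that takes electrons from ubiquinol. It had 118 and 74.6 CPM in LPS + VD3, 177 and 125 CPM in LPS and 92.2 and 84.1 CPM in control libraries. Both LPS libraries lay above both control libraries, and the LPS + VD3 libraries spanned the control values. The log2 fold change in LPS against control was 0.78 ± 0.24 (SE) with an edgeR adjusted p of 0.0291. That call was lost without LPS 1 (0.49 ± 0.20, edgeR adjusted p = 0.0753), without control 1 (adjusted p = 0.1), without control 2 (adjusted p = 0.168), without scaling (adjusted p = 0.134) and without the filter on low counts (adjusted p = 0.0794). It was also lost with limma on the authors' deposited log2 values (0.47 ± 0.23, limma adjusted p = 0.148). The log2 difference of Uqcrfs1 in LPS + VD3 against LPS was -0.65 ± 0.24 with an edgeR adjusted p of 0.154. In LPS + VD3 against control it was 0.13 ± 0.24 with an edgeR adjusted p of 0.702.

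Ndufaf4 is a membrane-associated factor needed for the assembly of complex I. It had 13.0 and 16.9 CPM in LPS + VD3, 5.95 and 9.91 CPM in LPS and 20.7 and 24.4 CPM in control libraries. The 3 groups did not overlap, with LPS lowest and LPS + VD3 between it and control. In LPS against control it fell by 1.5 (log2, SE 0.28, edgeR adjusted p = 0.00206), and the call held under all 16 alternative fits, with adjusted p between 3.86e-05 and 0.02. The log2 difference in LPS + VD3 against LPS was 0.91 ± 0.29, which did not pass the test (edgeR adjusted p = 0.117). Against control, LPS + VD3 differed by -0.59 ± 0.25 (edgeR adjusted p = 0.0986).

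Ndufaf7 is a methyltransferase that acts while complex I is assembled. It had 4.82 and 3.38 CPM in LPS + VD3, 6.36 and 4.65 CPM in LPS and 12.7 and 11.2 CPM in control libraries. Both treated groups lay below control and overlapped each other. Against control, it fell by 1.54 in LPS + VD3 (log2, SE 0.30, edgeR adjusted p = 0.00261) and fell by 1.11 in LPS (log2, SE 0.28, edgeR adjusted p = 0.0123). The call in LPS was lost without control 1 (edgeR adjusted p = 0.103), without control 2 (edgeR adjusted p = 0.0544) and in DESeq2 (adjusted p = 0.052), while the call in LPS + VD3 held under all 16 alternative fits. These 2 comparisons share the control libraries.

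Of the other 5 complex I assembly factors, Ndufaf1 had the largest difference in LPS, with 9.63 and 13.9 CPM in LPS + VD3, 7.80 and 10.3 CPM in LPS and 14 and 16.8 CPM in control libraries. Its log2 difference in LPS against control was -0.77 ± 0.27, which did not pass the test (edgeR adjusted p = 0.0514). The 11 members that are not subunits had a median log2 fold change of -0.40 in LPS against control, beside 0.08 for the 75 subunits. The 2 medians were 0.03 and -0.24 in LPS + VD3 against LPS, and -0.34 and -0.20 in LPS + VD3 against control. Most of these 11 members have low counts.

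The promoters of the called members Uqcrfs1, Ndufaf4, Ndufaf7 and Ndufs3 are shown because these were the subunits and complex I assembly factors that passed a test. Each runs from 250 bases before to 50 bases after the transcript start in RefSeq (GRCm38.p6), on the gene's strand, at chr13:30545267-30545566 (minus), chr4:24897833-24898132 (plus), chr17:78936885-78937184 (plus) and chr2:90904672-90904971 (minus). Capitals mark exact matches to binding motifs of factors known for respiratory chain genes: NRF1, whose palindrome is spelled out by the capitals in Ndufaf4, ETS factors such as GABPA (CCGGAAGT) and YY1 (AAGATGGCG), each searched on both strands.
Uqcrfs1: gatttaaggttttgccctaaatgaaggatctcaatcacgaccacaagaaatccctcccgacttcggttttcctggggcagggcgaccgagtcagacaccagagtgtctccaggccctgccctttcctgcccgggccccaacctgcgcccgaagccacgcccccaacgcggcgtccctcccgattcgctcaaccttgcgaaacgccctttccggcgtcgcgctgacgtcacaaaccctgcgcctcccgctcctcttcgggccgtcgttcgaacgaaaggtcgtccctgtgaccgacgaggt
Ndufaf4: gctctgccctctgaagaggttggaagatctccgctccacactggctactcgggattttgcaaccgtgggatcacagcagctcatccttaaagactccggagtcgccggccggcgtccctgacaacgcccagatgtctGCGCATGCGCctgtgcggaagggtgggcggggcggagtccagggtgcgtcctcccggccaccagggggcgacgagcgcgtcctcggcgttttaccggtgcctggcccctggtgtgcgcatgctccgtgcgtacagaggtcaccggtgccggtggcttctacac
Ndufaf7: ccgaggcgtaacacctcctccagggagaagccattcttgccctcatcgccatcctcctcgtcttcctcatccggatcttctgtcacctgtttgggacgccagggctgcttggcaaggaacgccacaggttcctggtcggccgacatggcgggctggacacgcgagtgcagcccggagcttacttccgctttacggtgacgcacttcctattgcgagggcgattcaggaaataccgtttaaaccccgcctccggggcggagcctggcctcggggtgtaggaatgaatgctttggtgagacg
Ndufs3: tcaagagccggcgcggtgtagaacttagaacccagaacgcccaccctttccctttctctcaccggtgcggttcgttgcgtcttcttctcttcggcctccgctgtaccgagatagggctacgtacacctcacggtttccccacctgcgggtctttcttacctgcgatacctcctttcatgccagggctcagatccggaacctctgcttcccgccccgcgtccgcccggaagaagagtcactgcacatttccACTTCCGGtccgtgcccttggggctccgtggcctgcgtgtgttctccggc

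The Ndufaf4 window held the NRF1 letters, beginning 113 bases before the start, and the Ndufs3 window held the ETS letters at the start itself. The windows of Uqcrfs1 and Ndufaf7 held none of the motifs searched. Of the 86 members, 71 had a promoter entry. The NRF1 letters stood in 7 of these 71 (9.86%), beside 2.38% of 8098 genes tested with an entry and 0.977% of all 27025 promoters. They were in Atp5g2, Atp5k, Cox6a1, Ndufa11, Ndufaf4, Ndufaf5 and Uqcrc1, of which Ndufaf4 passed a test. The ETS letters stood in 5 of 71 (7.04%), beside 9.37% of genes tested and 4% of all promoters. The YY1 letters stood in 6 of 71 (8.45%), beside 3.69% of genes tested and 1.49% of all promoters. A direct repeat of the type bound by the vitamin D receptor was searched in a single exact spelling, with any 3 bases as spacer. It stood in 0 of 71, in 0 of the genes tested and in 0.0074% of all promoters. A spelling this rare could hardly be met in 71 promoters, so the 0 says nothing on binding by that receptor. These are matches of letters and were not tested as sites.

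By complex, the median log2 fold change in LPS against control was 0.04 in complex I, -0.11 in complex II, 0.22 in complex III, 0.14 in complex IV and 0.16 in complex V. Without scaling the same medians were -0.26, -0.41, -0.07, -0.15 and -0.14, beside -0.29 for all genes, so that the sign flips in all but complex II with the shift of all genes, while the distance from the all-gene median hardly moves. The sign also differs by library: without LPS 1 the median of the 75 subunits was -0.14 and without LPS 2 it was 0.23. In complex I the largest positive difference was that of Ndufa11, an accessory subunit of the membrane arm, at 0.63 ± 0.31 (edgeR adjusted p = 0.153), and the largest negative one that of Ndufb10 at -0.42 ± 0.19 (edgeR adjusted p = 0.117). In complex II the ends were Sdhc at 0.08 and Sdhd at -0.33, the 2 membrane anchors. In complex III they were Uqcrfs1 at 0.78 and Uqcrb at -0.26, in complex IV Cox8a at 0.50 and Cox6b2 at -0.14, and in complex V Atp5d at 0.49 and Atp5c1 at -0.24 on the log2 scale. Besides Uqcrfs1 none of these passed the test.

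Ndufs1, the largest core subunit of complex I and a carrier of iron-sulfur clusters, had 103 and 94.2 CPM in LPS + VD3, 85.2 and 98.5 CPM in LPS and 110 and 126 CPM in control libraries. All treated libraries lay below both control libraries. The log2 difference was -0.37 ± 0.16 in LPS against control (edgeR adjusted p = 0.112) and -0.26 ± 0.16 in LPS + VD3 against control (edgeR adjusted p = 0.235), so neither passed the test. Its log2 difference in LPS + VD3 against LPS was 0.10 ± 0.16 (edgeR adjusted p = 0.728), with the groups overlapping. Libraries of LPS and control did not overlap in 27 of the 86 members (8 higher and 19 lower in LPS), beside 65.2% of genes tested (31.6% higher and 33.6% lower).

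The nuclear-encoded core subunits of complex I described here, which carry its flavin and iron-sulfur clusters, did not all lie on the same side of control. Ndufv1, which binds NADH, had 58 and 42.2 CPM in LPS + VD3, 95.6 and 62.9 CPM in LPS and 71.3 and 68 CPM in control libraries. Ndufv2, its partner with an iron-sulfur cluster, had 72.4 and 71.5 CPM in LPS + VD3, 66.5 and 75.5 CPM in LPS and 89.4 and 92 CPM in control libraries. Ndufv2 thus lay below control in all 4 treated libraries, whereas Ndufv1 lay on both sides of control in LPS. Against control, the log2 difference of Ndufv2 was -0.33 ± 0.15 in LPS + VD3 and -0.35 ± 0.15 in LPS (edgeR adjusted p = 0.119 and 0.109). Ndufs8, which holds further iron-sulfur clusters, had 28.5 and 19.3 CPM in LPS + VD3, 30.6 and 24.7 CPM in LPS and 30.3 and 28.7 CPM in control libraries, and it passed no test.

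Complex II, also an enzyme of the tricarboxylic acid cycle, has all 4 subunits encoded in the nucleus. Sdha, its flavoprotein, had 231 and 196 CPM in LPS + VD3, 220 and 245 CPM in LPS and 249 and 271 CPM in control libraries. Sdhb, its iron-sulfur protein, had 74.1 and 62.5 CPM in LPS + VD3, 91.9 and 68.6 CPM in LPS and 87 and 80.8 CPM in control libraries. All 4 subunits lay below the control mean in both LPS + VD3 libraries and in LPS 2, and 2 of the 4 lay below it in LPS 1. The membrane anchor Sdhd had 105 and 69.1 CPM in LPS + VD3, 112 and 88 CPM in LPS and 127 and 124 CPM in control libraries. Its log2 difference was the largest of the complex against control, at -0.53 ± 0.21 in LPS + VD3 (edgeR adjusted p = 0.0757) and -0.33 ± 0.21 in LPS (edgeR adjusted p = 0.265).

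In complex V, the catalytic subunit Atp5b had 970 and 753 CPM in LPS + VD3, 1192 and 963 CPM in LPS and 869 and 834 CPM in control libraries. Both LPS libraries lay above control, with a log2 difference of 0.34 ± 0.17 that did not pass the test (edgeR adjusted p = 0.164). Atp5c1, the gamma subunit of the rotor, had 198 and 195 CPM in LPS + VD3, 197 and 185 CPM in LPS and 229 and 221 CPM in control libraries, so that all treated libraries lay below control. Atp5g3, the most counted gene of the c ring, had 182 and 104 CPM in LPS + VD3, 227 and 169 CPM in LPS and 190 and 167 CPM in control libraries. Its low value stood in LPS + VD3 2, as did that of Atp5e, the epsilon subunit, with 69.5 and 29.1 CPM in LPS + VD3, 98.9 and 69.8 CPM in LPS and 81.2 and 60.1 CPM in control libraries. The log2 difference of Atp5e in LPS + VD3 against control was -0.52 ± 0.34 (edgeR adjusted p = 0.27).

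In complex IV, the core-associated Cox4i1 had 222 and 182 CPM in LPS + VD3, 303 and 202 CPM in LPS and 216 and 209 CPM in control libraries. Cox8a, a small accessory subunit, had 64.9 and 66.7 CPM in LPS + VD3, 122 and 67.4 CPM in LPS and 70.6 and 63.5 CPM in control libraries. In both genes LPS 1 stood above the other 5 libraries. Cox5a had 161 and 90.6 CPM in LPS + VD3, 164 and 130 CPM in LPS and 161 and 163 CPM in control libraries, with LPS + VD3 2 below the rest. Cox7a2l, known for its part in joining complexes III and IV, had 68.7 and 76.4 CPM in LPS + VD3, 79.6 and 65.3 CPM in LPS and 77.4 and 72.1 CPM in control libraries, and its log2 differences were at most 0.04 in size, each with an SE of 0.17.

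**Figure D2:**
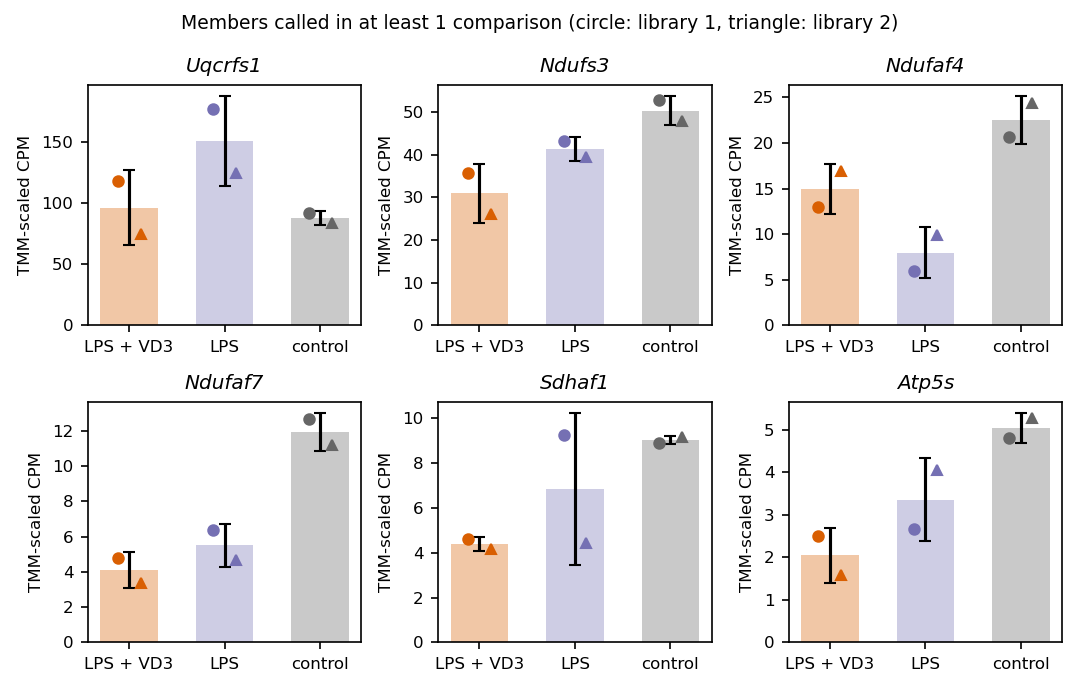
TMM-scaled CPM of the 6 members that passed the test in at least 1 comparison, by group, with bars for the mean of 2 libraries, error bars for the SD, circles for library 1 and triangles for library 2. Ndufaf7 lies below control in all 4 treated libraries, Ndufaf4 is lowest in LPS, and Uqcrfs1 is highest in LPS.

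In LPS + VD3 against LPS, 0 of the 86 members passed the test, beside 3.83% of all genes tested, 2.25% higher and 1.59% lower (edgeR quasi-likelihood test, Benjamini-Hochberg adjusted p under 0.05). DESeq2, limma-voom and limma on the deposited log2 values also called 0, beside 5.06%, 3.52% and 3.47% of the genes they tested. Counts under the other fits, of which those with the replicate number as a block were above 0, are given with the dependence on processing. At an unadjusted p under 0.05 edgeR gave 17 members (19.8%), 3 higher and 14 lower, beside 22% of genes tested (10.8% higher and 11.3% lower). The 3 higher ones were Ndufaf4, Ndufa12 and Uqcrb. The median log2 fold change was -0.23 for the members, beside values within 0.01 of 0 for all genes tested. Of the 75 subunits, 58 had a fold change below 0 and 17 above.

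The median was below 0 in every complex, at -0.28 in complex I, -0.22 in complex II, -0.50 in complex III, -0.21 in complex IV and -0.32 in complex V. It stayed below 0 in each under the scalings tried. The largest difference was that of Ndufa11, with 14.7 and 10.7 CPM in LPS + VD3, 35.3 and 17.6 CPM in LPS and 18.5 and 15.7 CPM in control libraries. LPS 1 stood apart there, and the LPS + VD3 libraries lay below LPS 2 by much less than below LPS 1. The log2 difference was -1.06 ± 0.33 (edgeR adjusted p = 0.11), the only one of 1 or more in size among the members, beside 6.34% of genes tested. The other lower ends were Sdhc at -0.37 in complex II, Uqcr11 at -0.74 in complex III, Cox8a at -0.53 in complex IV and Atp5d at -0.87 in complex V. The upper ends were Ndufa12 at 0.55 ± 0.23, Sdha at -0.12, Uqcrb at 0.41 ± 0.18, Cox7c at 0.03 and Atp5f1 at 0.15 on the log2 scale, none past the test.

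Uqcrb, the ubiquinone-binding subunit of complex III, had 115 and 140 CPM in LPS + VD3, 83.9 and 107 CPM in LPS and 116 and 112 CPM in control libraries. It was lower in LPS 1 than in LPS 2, whereas the other 7 subunits of its complex were higher in LPS 1. Uqcr11, a small subunit of the same complex, had 31.6 and 24.9 CPM in LPS + VD3, 67.7 and 26.9 CPM in LPS and 36.8 and 31.7 CPM in control libraries. Its 5 other libraries lay between 24.9 and 36.8 CPM, so its fold change rests on LPS 1. Libraries of LPS + VD3 and LPS did not overlap in 28 members (7 higher and 21 lower), beside 48.1% of genes tested (24.6% higher and 23.5% lower).

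This comparison depended on which library of either group was left out. Without LPS 2, so that LPS 1 alone stood for the group, 36 members passed the edgeR test, 34 of them lower, beside 33.3% of genes tested. Without LPS 1, 0 members passed, beside 4.41% of genes tested. The median of the subunits was -0.42 without LPS 2 and -0.06 without LPS 1. It moved likewise with the LPS + VD3 libraries, at -0.47 without LPS + VD3 1 and -0.12 without LPS + VD3 2. The lone library is assumed in these fits to vary like the other groups.

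**Figure D3:**
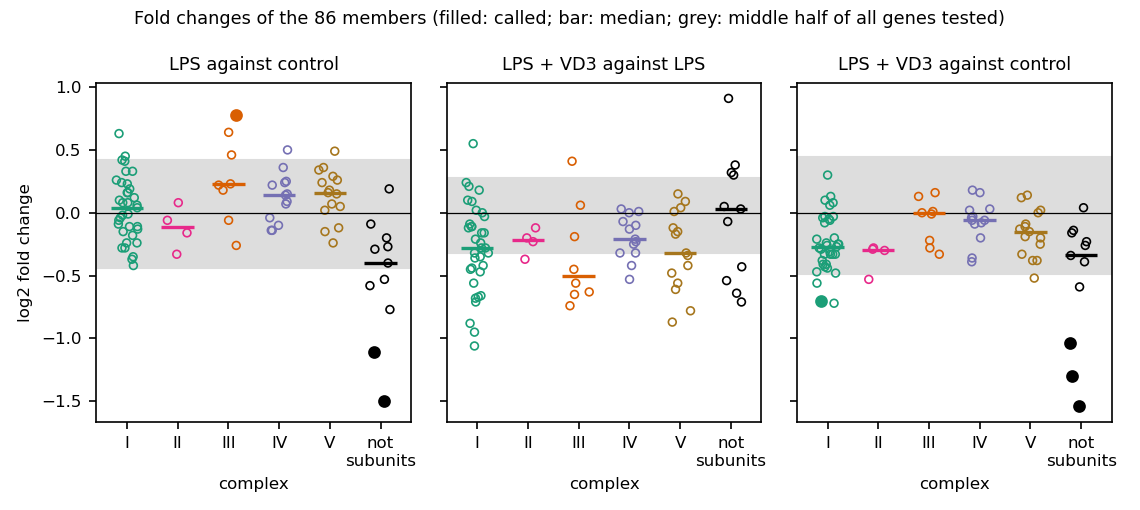
Fitted log2 fold change of the 86 members in the 3 comparisons, by complex, with the 11 members that are not subunits at the right of each panel, filled points for members that passed the test, bars for medians and a grey band for the interquartile range of all genes tested. In both comparisons with control most members lie inside the band, and the called members are Uqcrfs1, Ndufs3 and 4 that are not subunits.

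LPS + VD3 against control called 4 of the 86 members, all lower, beside 35% of all genes tested, 17.7% higher and 17.3% lower (edgeR quasi-likelihood test, Benjamini-Hochberg adjusted p under 0.05). They were Ndufaf7, Sdhaf1, Atp5s and 1 subunit, Ndufs3. The comparison shares the control libraries with LPS against control. The median log2 fold change was -0.23 for the members and -0.20 for the subunits, beside 0.01 for all genes tested, and 59 of the 75 subunits were below 0. Without LPS + VD3 1 the members' median was -0.36 and without LPS + VD3 2 it was -0.08.

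Ndufs3, a core subunit of the quinone-binding module of complex I, had 35.8 and 26.1 CPM in LPS + VD3, 43.3 and 39.4 CPM in LPS and 52.8 and 47.9 CPM in control libraries. The groups did not overlap, with LPS between LPS + VD3 and control. Against control, it fell by 0.70 in LPS + VD3 (log2, SE 0.20, edgeR adjusted p = 0.0188). The call was lost without LPS + VD3 2 (edgeR adjusted p = 0.145), without control 1 (edgeR adjusted p = 0.16) and without control 2 (edgeR adjusted p = 0.082).

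Sdhaf1, which helps insert iron-sulfur clusters into Sdhb, had 4.61 and 4.18 CPM in LPS + VD3, 9.23 and 4.45 CPM in LPS and 8.91 and 9.14 CPM in control libraries. The LPS libraries stood apart from each other, one near each of the other groups. Against control, it fell by 1.04 in LPS + VD3 (log2, SE 0.35, edgeR adjusted p = 0.0445). Atp5s, once described as a coupling factor of the ATP synthase, had 2.51 and 1.59 CPM in LPS + VD3, 2.67 and 4.05 CPM in LPS and 4.8 and 5.29 CPM in control libraries, from 8 to 33 counts a library. Against control, it fell by 1.30 in LPS + VD3 (log2, SE 0.39, edgeR adjusted p = 0.0271). Both calls were lost without any one of the 4 libraries compared, and in DESeq2 (adjusted p = 0.1 for Sdhaf1 and 0.117 for Atp5s). The call of Sdhaf1 was also lost in limma-voom and without the filter on low counts.

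The medians by complex in LPS + VD3 against control were -0.27 in complex I, -0.29 in complex II, -0.06 in complex IV and -0.15 in complex V, and that of complex III lay within 0.01 of 0. The lower ends were Ndufs7 at -0.72 ± 0.34, Sdhd at -0.53 ± 0.21, Uqcr10 at -0.33, Cox6b2 at -0.39 and Atp5e at -0.52 on the log2 scale. Ndufs7, the core subunit with the iron-sulfur cluster next to the quinone site, had a larger difference than Ndufs3 but did not pass the test (edgeR adjusted p = 0.13), with an SE of 0.34 against 0.20. It had 15.7 and 11.1 CPM in LPS + VD3, 35.7 and 16.2 CPM in LPS and 22.1 and 22.1 CPM in control libraries. The upper ends were Ndufa12 at 0.30, Sdha at -0.28, Uqcrb at 0.16, Cox7c at 0.18 and Atp5h at 0.14.

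Libraries of LPS + VD3 and control did not overlap in 41 members (3 higher and 38 lower), beside 75.8% of genes tested (38.4% higher and 37.4% lower). The fit used 1 estimate of spread for all 6 libraries, the widely spaced LPS pair included. With the 4 libraries of this comparison alone, 14 members passed the edgeR test, all lower, beside 49.4% of genes tested. Leaving out LPS 1 gave 16 members (48.8% of genes tested) and leaving out LPS 2 gave 13 (49%). Leaving out LPS + VD3 1 gave 6 (23.1%) and LPS + VD3 2 gave 1 (19.4%), and leaving out control 1 or control 2 gave 1 each (19.4% and 19.5%), so the members' counts moved with those of all genes.

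Within both treated groups the 2 libraries differed over most subunits at once. Relative to the control mean, the median subunit stood at -0.05 in LPS + VD3 1, -0.34 in LPS + VD3 2, 0.23 in LPS 1 and -0.12 in LPS 2 on the log2 scale, with the 2 control libraries at 0.03 and -0.03. Of the 75 subunits, 28 lay above the control mean in LPS + VD3 1, 12 in LPS + VD3 2, 59 in LPS 1 and 19 in LPS 2. Summed over the 75 subunits, the level was 7069 and 5917 CPM in LPS + VD3, 8481 and 6772 CPM in LPS and 7212 and 6973 CPM in control libraries. The LPS values thus lay on both sides of control. Complex III had the highest median in LPS 1, at 0.48, against -0.06 in LPS 2, and complex II the lowest in LPS + VD3 2, at -0.51, against -0.17 in LPS + VD3 1.

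**Figure D4:**
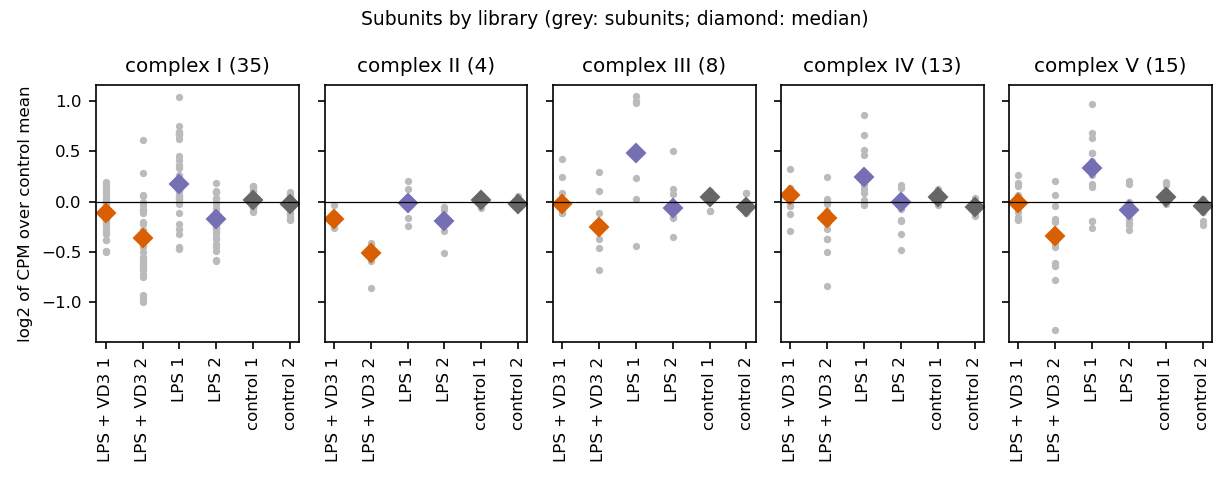
Log2 of each subunit's CPM over the control mean in each library, by complex, with grey points for subunits and diamonds for medians. LPS + VD3 2 has the lowest median in every complex, LPS 1 has the highest in complexes I, III, IV and V, and the 2 control libraries lie close together.

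Set library against library, the median subunit was -0.30 in LPS + VD3 1 over LPS 1 and 0.07 in LPS + VD3 1 over LPS 2 on the log2 scale. It was -0.66 in LPS + VD3 2 over LPS 1 and -0.18 in LPS + VD3 2 over LPS 2. The median was thus below 0 in 3 of the 4 pairings. In the labels the LPS + VD3 libraries are called LPS1 plus VD3 and LPS2 plus VD3, and both pairings of equal number were below 0, with 60 of the 75 subunits lower in the first and 59 in the second. The labels do not state that equal numbers mark shared cells.

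The difference between the LPS libraries moved with the GC content of the transcripts. Over the 75 subunits, the log2 ratio of LPS 1 to LPS 2 had a median of 0.38, from -0.35 to 1.32, and 65 were above 0. Over 10650 genes tested the same ratio had a median of 0.02, with 5525 above 0. Its Spearman correlation with GC content was 0.631 across these subunits, 0.654 across the 86 members and 0.680 across 10650 genes, all within the same 2 libraries, so that genes are no independent replicates. The correlation with transcript length was -0.068 across the subunits and -0.325 across all genes. In the 25 subunits of lowest GC (42.0% to 49.4%) the median ratio was 0.15. In the middle 25 it was 0.38 and in the 25 of highest GC (53.8% to 61.1%) it was 0.61. Over all genes tested it was -0.25, -0.19 and -0.04 in bins centred on 45%, 47% and 49% GC. In the bins centred on 51% and 57% GC it was 0.07 and 0.42. The subunits thus stood above genes of similar GC as well. Subunits with GC near the upper end led: Uqcr11 (58.9% GC) had a log2 ratio of 1.33, Atp5d (61.1% GC) 1.18, Ndufs7 (60.2% GC) 1.14 and Ndufa11 (58.2% GC) 1.00.

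The 2 LPS + VD3 libraries also differed, with a weaker relation to GC content over all genes and hardly any across the subunits. The log2 ratio of LPS + VD3 1 to LPS + VD3 2 had a median of 0.31 over the subunits, with 63 above 0, and its Spearman correlation with GC content was 0.030 across the subunits and 0.189 across all genes. For control 1 over control 2 the median over the subunits was 0.06, with 54 above 0. The correlation there was 0.176 across the subunits and 0.244 across all genes. The subunits have a median GC content of 51.6% and a median transcript length of 745 bases, beside 50.1% and 2686 bases over all genes tested. Their median GC lies close to that of other genes, and they are shorter.

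**Figure D5:**
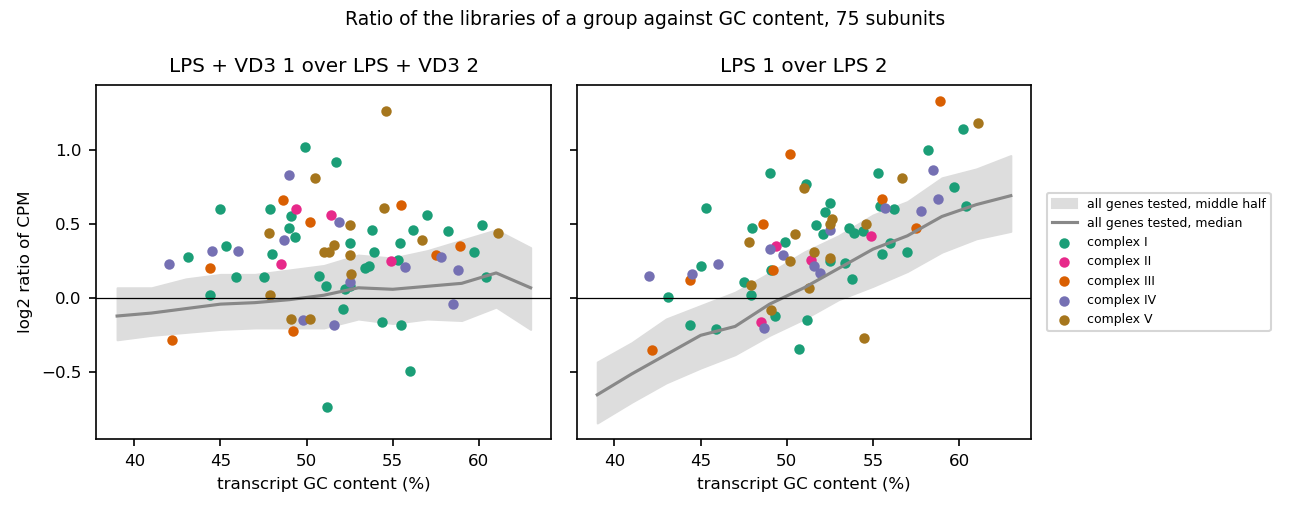
Log2 ratio of the 2 libraries of LPS + VD3 (left) and of LPS (right) against transcript GC content in percent, with the 75 subunits coloured by complex and the median and interquartile range of all genes tested in grey. The ratio of LPS 1 to LPS 2 climbs with GC for subunits and for all genes, while most subunits lie above the grey line in both panels.

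A trend in GC was removed from each library by offsets, and the members were compared again. In LPS + VD3 against LPS the median over the 25 subunits of highest GC was -0.10 with offsets, against -0.42 without, and over the 25 of lowest GC it was -0.25 with offsets, against -0.12 without. The median over all subunits was -0.20 with offsets, against -0.24 without, and 0 members passed the test either way. In LPS against control the medians over the 25 subunits each of lowest, middle and highest GC were 0.04, 0.17 and 0.12 with offsets and -0.06, 0.14 and 0.22 without. The median of all 75 subunits in LPS + VD3 against control was -0.11 with offsets and -0.20 without.

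Other gene lists of mitochondrial respiration are read against the shares called over all genes tested, which were 31.8% in LPS against control, 3.83% in LPS + VD3 against LPS and 35% in LPS + VD3 against control. Of 5 genes for cytochrome c, cytochrome c1 and the ATPase inhibitor, 0 were called in any of the 3 comparisons. The subunits encoded by mitochondrial DNA were not analysed here. Of 30 assembly factors with other symbols, 2 rose and 3 fell in LPS against control, 0 were called in LPS + VD3 against LPS, and 2 rose and 7 fell in LPS + VD3 against control. Bcs1l, which inserts the Rieske protein Uqcrfs1 into complex III, averaged 4.71 CPM in LPS + VD3, 4.7 CPM in LPS and 10.5 CPM in control libraries. In both comparisons with control its log2 change was -1.16 ± 0.31 (edgeR adjusted p = 0.0168 in LPS + VD3 and 0.0174 in LPS). Surf1, an assembly factor of complex IV, averaged 10 CPM in LPS + VD3, 10.3 CPM in LPS and 17.4 CPM in control libraries, and its calls had edgeR adjusted p of 0.0234 in LPS and 0.0176 in LPS + VD3. Of the calls of Bcs1l and Surf1, each was lost in DESeq2 (adjusted p between 0.052 and 0.101) and without either control library (edgeR adjusted p between 0.0619 and 0.215).

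Among 14 regulators of mitochondrial biogenesis, 2 rose and 1 fell in LPS against control, 1 rose in LPS + VD3 against LPS, and 3 rose and 1 fell in LPS + VD3 against control. Ppargc1b, a coactivator of nuclear genes for mitochondrial proteins, had 15 and 29 counts in LPS + VD3, 3 and 4 counts in LPS and 63 and 64 counts in control libraries. The 3 groups did not overlap. In LPS against control it fell by 3.84 (log2, SE 0.45, edgeR adjusted p = 0.000108), under all 16 alternative fits. It was higher in LPS + VD3 than in LPS, with a log2 fold change of 2.61 ± 0.53 (edgeR adjusted p = 0.0241). That second call was lost without LPS + VD3 1 (edgeR adjusted p = 0.0516), without LPS + VD3 2 (edgeR adjusted p = 0.256), without LPS 1 (edgeR adjusted p = 0.0531), without the filter and in limma-voom. The 2 that rose in LPS against control were Esrra and Gabpb1. Esrra had 33.5 and 16.7 CPM in LPS + VD3, 61.8 and 24.7 CPM in LPS and 17.1 and 15.4 CPM in control libraries. Its log2 change in LPS was 1.41 ± 0.42 (edgeR adjusted p = 0.0257), a call lost in 6 of the 16 alternative fits. Gabpb1, a subunit of the GA-binding protein, averaged 41.2 CPM in LPS + VD3, 33.9 CPM in LPS and 18.8 CPM in control libraries. Against control, Gabpb1 rose in LPS (log2 0.85 ± 0.18, edgeR adjusted p = 0.00526) and in LPS + VD3 (1.13 ± 0.18, edgeR adjusted p = 0.000862). The call in LPS was lost without control 1 (edgeR adjusted p = 0.0946) or control 2 (edgeR adjusted p = 0.0513).

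Among 24 genes of the tricarboxylic acid cycle and pyruvate dehydrogenase, 1 rose and 4 fell in LPS against control. The 4 that fell were Suclg2 and the pyruvate dehydrogenase kinases Pdk1, Pdk2 and Pdk4. In LPS + VD3, 0 were called against LPS, and 1 rose and 5 fell against control. Pdk1, a kinase that inhibits pyruvate dehydrogenase, averaged 9.27 CPM in LPS + VD3, 11 CPM in LPS and 43 CPM in control libraries, and it fell by 2.21 in LPS + VD3 (log2, SE 0.21, edgeR adjusted p = 2.91e-05) and fell by 1.96 in LPS (log2, SE 0.21, edgeR adjusted p = 5.87e-05), in all 16 alternative fits. Of 8 genes for carriers, uncoupling and superoxide dismutase, Sod2, the mitochondrial superoxide dismutase, rose and 0 fell in LPS, and Sod2 rose and Vdac2 fell in LPS + VD3, against control. Sod2 had means of 1010 CPM in LPS + VD3, 1012 CPM in LPS and 199 CPM in control libraries (log2 2.35 ± 0.14 in LPS, edgeR adjusted p = 1.45e-06). Vdac2, a channel of the outer mitochondrial membrane, averaged 273 CPM in LPS + VD3, 313 CPM in LPS and 405 CPM in control libraries. Its log2 change was -0.57 ± 0.15 in LPS + VD3 against control (edgeR adjusted p = 0.0124), a call lost in 3 of the 16 alternative fits. Of 76 mitochondrial ribosomal proteins, 2 rose and 3 fell in LPS, and 2 rose and 4 fell in LPS + VD3, against control. Mrpl39 rose in both, with means of 73.5 CPM in LPS + VD3, 64.4 CPM in LPS and 23.1 CPM in control libraries. Of 23 protein import genes, 1 rose and 2 fell in LPS and 1 rose and 1 fell in LPS + VD3, and of 11 coenzyme Q genes 1 rose and 1 fell in each, all against control. None of these last 4 lists held a gene called in LPS + VD3 against LPS (0 of each).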

How the data were processed

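Per the labels' protocols, the Qiagen RNeasy Micro Kit gave the RNA and the KAPA mRNA HyperPrep Kit the libraries. The main deposited table holds the authors' whole-number counts for each gene. TopHat2, edgeR and mm10 are named in the submitters' processing notes. No source used here gives the counter, annotation or strand setting, so counts of overlapping genes and of near-identical copies are uncertain. The authors' second deposited table holds log2 values, which equal log2(CPM + 1) within 0.00423 over 10327 matched genes, and it served only as an alternative, with limma.

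The tests used edgeR 4.0.16 (R 4.3.3): filterByExpr (minimum count 10, minimum total 15) kept 10724 of 23413 genes, libraries were scaled by TMM, and 1 quasi-likelihood fit over the 6 libraries gave the means of the 3 groups, with Benjamini-Hochberg adjustment over all genes at 0.05. The SE is the fold change over the square root of the F statistic. The procedure was tested on simulated counts with equal spread in all libraries and no GC trend. That test does not cover the GC trend or the wider spread of the LPS pair. Library ratios used log2(CPM + 0.5), with some exceptions that used CPM alone. These were the ratios of single genes, the medians of LPS + VD3 libraries over LPS libraries, the medians of subunits grouped by GC content, and the subunits drawn in the figures. Transcript length and GC are medians over the basic transcripts of GENCODE M21 (GRCm38, the same assembly as mm10). Alternatives included DESeq2 1.42.0, limma-voom 3.58.1, GC offsets and leaving out each library. Libraries of 1 group all differed by more than sampling noise, so none was counted as 1. LPS 1 has a title from a different run of numbers than its 5 fellows, and no other sign of a batch is in the labels, so batch and library cannot be told apart.

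The members and gene lists were chosen with earlier results of these data known. Named genes are the called members, Ndufs1 and Uqcrfs1, the ends of each complex in fold change and in level per kilobase, the isoform pairs, and up to 3 called genes of each other list. The core subunits of complex I and other members given by library (Uqcr11, Ndufs7, Sdhb, Atp5e and the like) were chosen after their values were seen.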

Additional observations from a re-analysis of the deposited data

How the results depend on the processing

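Shares of all genes called under the same fit are in parentheses. No called gene named here changed direction in any of the 16 alternative fits. Beside 3 members called in LPS against control, there were 13 without scaling (38.6%) and 13 with the deposited log2 table (36%), 0 of them higher in both, 6 with GC offsets (41.7%), 12 with a replicate block and GC offsets (45.7%), and 1 to 26 without 1 library (17.6% to 43.8%), where the members' median lay between -0.17 and 0.17 and was -0.24 with the deposited table. Beside 0 called in LPS + VD3 against LPS, there were 10 with a replicate block, 9 of them lower (10.7%), 11 with a replicate block and GC offsets, 10 of them lower (12.9%), and 0 to 36 without 1 library (0.5% to 33.3%), with medians between -0.45 and -0.03. Beside 4 in LPS + VD3 against control, there were 28 without scaling (42.2%) and 28 with the deposited table (39.4%), 2 in DESeq2 (29.1%), 14 with its 4 libraries alone (49.4%), 10 with a replicate block (41.3%), 8 with GC offsets (44.4%), 14 with a replicate block and GC offsets (48.7%), 1 with a minimum sum of 300 counts, and 1 to 16 without 1 library (19.4% to 49%). The median of -0.23 there was -0.55 without scaling, -0.52 with the deposited table, -0.13 with GC offsets with or without a replicate block, and -0.36 to -0.08 without 1 library. The causes were not tested, except that the unscaled and deposited values shift all genes. The members' median level was 66.2 CPM per kilobase, and 55.6 by the longest transcript.

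Over all genes, the share of calls that were higher was 26.2% without scaling and 24.7% with the deposited table in LPS against control, beside 49.2%, and 25.9% and 24.2% in LPS + VD3 against control, beside 50.5%. Beside 411 genes called in LPS + VD3 against LPS, there were 169 without the filter, 258 with 4 libraries, 811 with GC offsets, 1152 with a replicate block, 1383 with both, and 55 to 3670 without 1 library. Leaving out a control library gave 1940 and 1975 calls in LPS against control, beside 3411. In LPS + VD3 against control, leaving out a control library gave 2126 and 2144 and leaving out LPS + VD3 2 gave 2135, beside 3749.

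The labels do not say that equal numbers pair libraries. Deviations of same-numbered libraries from their group means correlated at 0.18 in LPS + VD3 and LPS, 0.076 in LPS + VD3 and control and 0.147 in LPS and control, with 2 pairs each, so the block was not used in the main results.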
